A study of Mus musculus with 4 samples.

Results

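The genes described here are the cytosolic aminoacyl-tRNA synthetases and the genes of the integrated stress response, measured as RNA in mouse embryonic stem cells (ESCs) with and without Naa10. The members were taken by name from a list of 34 symbols, 20 synthetase genes and 14 stress response genes. Of these 34, 33 were found in the tables, each in 1 of the 14099 named rows. Ddit3, which encodes the transcription factor CHOP, had no row and is not analysed here. All 20 synthetases were present, although Aars shared a row with Exosc6, and Qars shared a row with Impdh2 and Qrich1, so the levels of those genes cannot be separated from their neighbours.

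Aminoacyl-tRNA synthetases attach each amino acid to its tRNA and so supply the ribosome. When uncharged tRNA, misfolded proteins in the endoplasmic reticulum (ER) or other stresses appear, kinases phosphorylate the initiation factor eIF2, most translation slows, and the mRNA of the transcription factor ATF4 is translated more. ATF4 is known to switch on genes of amino acid synthesis and import, many cytosolic synthetase genes and feedback genes that restore translation. Because ATF4 is set largely at translation, RNA levels report on its gene and its targets, and not on the protein or on eIF2 phosphorylation.

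The study had 2 groups of 2 libraries each, labelled wild type (WT) and Naa10-KO. Naa10 is the catalytic subunit of NatA, an enzyme that acetylates the N-termini of nascent proteins. All cells came from the inner cell mass of F1 hybrid blastocysts, from Naa10-/X C57BL/6 mothers and WT JF1 fathers, and the WT cells are littermates of the Naa10-KO cells. All cells grew in N2B27 medium with LIF, the Mek inhibitor PD325901 and the Gsk3 inhibitor Chir99021, for 5 passages on irradiated mouse embryonic fibroblast (MEF) feeders and 5 passages without them. The libraries of a group are labelled biological replicates, without saying whether they came from separate lines, so the spread behind each p-value may be that within a line. Which part of Naa10 was deleted is not stated.

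Levels are in RPKM, a read density corrected for transcript length and library size, so genes can be compared with each other. The Naa10-KO libraries were the deeper ones, at 1.46 and 1.68 times the depth of WT replicate 1, against 1.02 for WT replicate 2. The targeted gene shares a row with Renbp, which was at 105 and 106 RPKM in WT and fell to 28.9 and 34.4 RPKM in Naa10-KO (log2 difference -1.71, limma adjusted p = 0.0342). The call was lost without the rows holding a 0 and those of small RNAs (adjusted p = 0.0819) and without either WT library (adjusted p = 0.366 and 0.355). All 10 naive ESC markers were detected in every library, from 30.7 RPKM for Zfp42 upward. All 10 were higher in Naa10-KO replicate 2 than in replicate 1, as 54.5% of all tested rows were, and their median log2 difference from WT was -0.40 in replicate 1 and 0.25 in replicate 2. All 12 fibroblast markers had the reverse order. Their summed level was 111 and 118 RPKM in WT, 260 RPKM in Naa10-KO replicate 1 and 66.4 RPKM in replicate 2. Whether these marker levels reflect a difference in cell make-up, and the part of any such difference in the results below, was not tested. In bulk RNA fewer cells of a type and less RNA per cell cannot be told apart.

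Promoters that hold the C/EBP-ATF response element, the sequence that ATF4 and its C/EBP partners bind, are shown first because they bear on which members are candidate ATF4 targets. RefSeq (GRCm38.p6) gave 300-base promoters, from 250 bases before to 50 after the annotated start, for 27 of the 34 members, Mars being matched under its newer symbol Mars1. The expression tables use mm9, so these coordinates belong to the RefSeq table alone. No entry was found for Cars, Hars, Lars, Nars, Rars, Vars and Wars. The motif TGATGCAA, on either strand, was found in 7 of these 27 genes and in 0.895% of all 32851 promoters of the table. A looser form, TGATGNAAN, which contains the first motif, was found in 10 of 27 genes and in 3.95% of all promoters. The windows of 30 bases below are written 5′ to 3′ on the strand of the gene, with the match in capitals, which reads as its reverse complement where the motif lies on the opposite strand.
Tars, chr15:11399655-11399684, minus strand: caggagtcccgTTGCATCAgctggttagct
Iars, chr13:49682126-49682155, plus strand: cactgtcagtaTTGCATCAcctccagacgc
Yars, chr4:129189895-129189924, plus strand: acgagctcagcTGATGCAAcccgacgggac
Gars, looser form, chr6:55037960-55037989, plus strand: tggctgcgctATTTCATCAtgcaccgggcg
Asns, looser form, chr6:7693213-7693242, minus strand: cccagccacaTGATGAAACttcccgcacgc
Chac1, chr2:119351038-119351067, plus strand: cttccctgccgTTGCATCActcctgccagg
Nupr1, chr7:126625562-126625591, minus strand: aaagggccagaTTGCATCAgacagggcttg

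Aars, Trib3 and Vldlr held a match too, and their windows are not shown. The ER stress element, bound by the other branches of the unfolded protein response, was found in 0 of the 27 genes and in 0.119% of all promoters. The AP-1 site TGACTCA was found in the promoters of Qars and Ddit3, and in 5.20% of all promoters. A match describes these letters only and is no evidence of binding.

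The cytosolic synthetases differed little between Naa10-KO and WT. None of the 20 rows passed the test (limma on log2(RPKM + 1), adjusted p under 0.05 over all 11912 tested rows), where 0.764% of all tested rows passed, 0.218% as higher and 0.546% as lower. Their log2 differences ran from -0.27 for the joined Qars row to 0.31 for the joined Aars row. The median was 0.03, beside -0.06 over all tested rows and -0.009 over those at or above the lowest synthetase mean. All 20 lay within 0.5 of no difference, as did 83.9% of all tested rows. The absolute difference had a median of 0.10 among the synthetases, 0.22 over all tested rows and 0.19 over the 2024 rows at or above the lowest synthetase mean of 43.9 RPKM.

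The synthetase genes were all well expressed. In WT replicate 1 they ran from 43.9 RPKM for Yars, the tyrosine enzyme, to 231 RPKM for Kars, the lysine enzyme, with only the joined Qars row higher, at 506 RPKM. Gars, the glycine enzyme, was second among the genes with a row of their own, at 147 and 145 RPKM in WT. The subunits of the phenylalanine enzyme, which is built from both in equal number, differed in RNA level. Farsb had 84.6 and 86.3 RPKM in WT and Farsa 45.8 and 47.9 RPKM. The order stayed so in Naa10-KO, where Farsb had 76.5 and 87.6 RPKM and Farsa 49.6 and 51.1 RPKM.

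**Figure D1:**
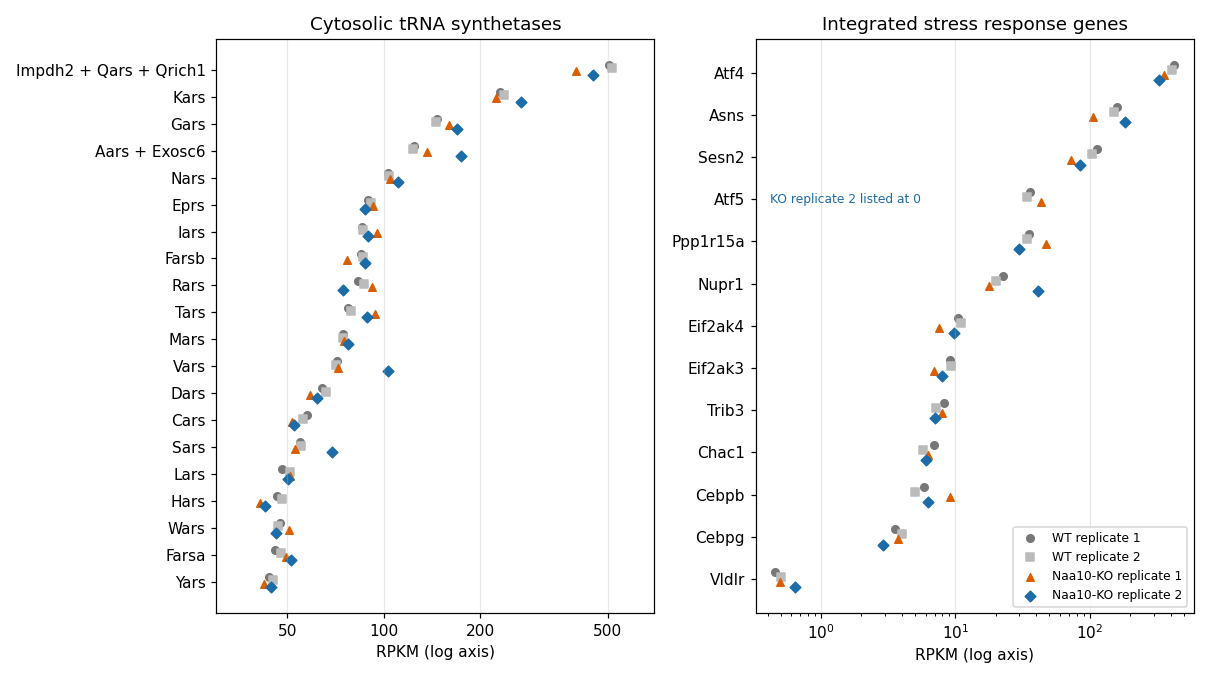
RPKM (log axes, which differ between the panels) of the 20 synthetase rows and the 13 integrated stress response rows, with 1 point for each of the 4 libraries. The points of most synthetases nearly coincide, while Asns, Nupr1 and Ppp1r15a spread between the Naa10-KO libraries and Atf5 has no point for Naa10-KO replicate 2, where it was listed at 0.

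Of the 20 synthetase rows, 8 had both Naa10-KO libraries above both WT libraries and 4 had both below. Such separation was common in these data, holding for 59.3% of all tested rows, 24.4% above WT and 34.9% below. Among the 2024 rows at or above the lowest synthetase mean it held for 1310, 671 above WT and 639 below. The synthetase counts depended on the scaling, with 11 above and 3 below after centring each library on its median, where all rows gave 30.9% and 27.4%, and 5 above and 5 below after quantile normalization, where all rows gave 29.0% and 29.6%. Tars, the threonine enzyme, had 77.4 and 79.0 RPKM in the WT libraries, against 93.7 and 88.7 RPKM in the Naa10-KO libraries. Both Naa10-KO libraries were thus higher, without overlap, at 117% of the WT mean (log2 difference 0.22, SE 0.07, limma adjusted p = 0.198). Gars stood at 160 and 169 RPKM in Naa10-KO, both above WT (log2 difference 0.17, adjusted p = 0.254).

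The joined row of Aars, the alanine enzyme, and Exosc6, an exosome subunit, had 125 and 123 RPKM in the WT pair, compared with 136 and 174 RPKM in the Naa10-KO pair. Replicate 2 carried most of that difference (log2 0.49 against 0.13 in replicate 1; limma adjusted p = 0.287 for the pair). Vars, the valine enzyme, behaved likewise. It had 71.3 and 70.7 RPKM in WT, 71.8 RPKM in Naa10-KO replicate 1 and 103 RPKM in replicate 2, and was the only synthetase to lie outside WT by at least 0.5 on the log2 scale in either Naa10-KO library. Iars, Farsa, Nars and Mars also lay above WT in both libraries, with mean log2 differences of 0.10, 0.10, 0.05 and 0.03.

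Hars, the histidine enzyme, was lower in both Naa10-KO libraries, at 46.5 and 48.0 RPKM in the WT libraries, against 41.0 and 42.6 RPKM in the Naa10-KO libraries (88.4% of WT, limma adjusted p = 0.268). Cars, the cysteine enzyme, had 57.8 and 56.0 RPKM in WT replicates 1 and 2, where the Naa10-KO replicates had 51.7 and 52.4 RPKM (91.5% of WT). Dars, the aspartate enzyme, had 63.9 and 66.1 RPKM in the WT libraries, against 58.7 and 61.7 RPKM in the Naa10-KO libraries (92.6% of WT). For these genes the groups did not overlap, but the differences were small. The joined Qars row was lower as well, at 506 and 517 RPKM in the WT pair, compared with 400 and 450 RPKM in the Naa10-KO pair (limma adjusted p = 0.194), and which of its 3 genes this reflects is not known.

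The remaining 8 synthetases overlapped WT or lay on opposite sides of it. Eprs, which charges both glutamate and proline, was nearly level, with WT levels of 89.3 and 91.1 RPKM, next to 92.7 and 87.4 RPKM in the knockout libraries. The 95% interval of its log2 difference ran from -0.20 to 0.19. Rars, the arginine enzyme, had 82.8 and 86.6 RPKM in WT, 92.0 RPKM in Naa10-KO replicate 1 and 74.8 RPKM in replicate 2. Sars, the serine enzyme, had 54.7 and 55.1 RPKM in WT, 52.7 RPKM in replicate 1 and 69.1 RPKM in replicate 2. Kars went the same way, at 231 and 238 RPKM in WT against 225 RPKM in replicate 1 and 269 RPKM in replicate 2. Farsb and Wars, the tryptophan enzyme, also had the Naa10-KO libraries on opposite sides, while Lars and Yars overlapped WT, with Naa10-KO means at 102% and 97.2% of WT.

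**Figure D2:**
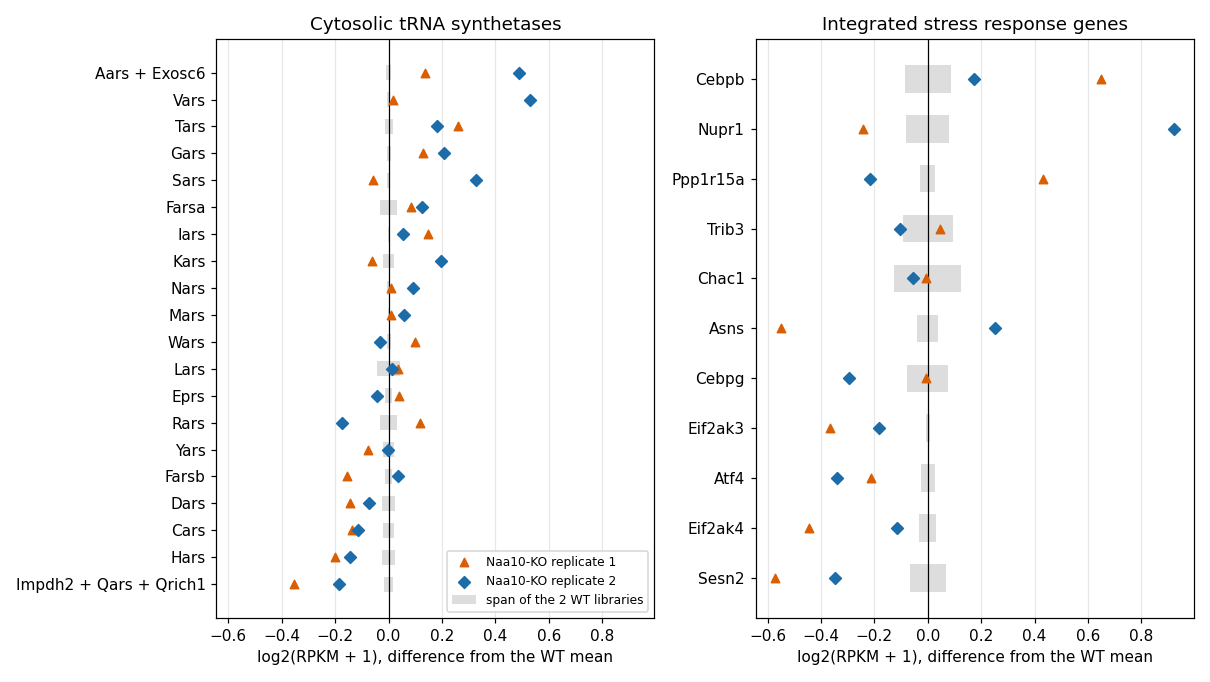
Log2(RPKM + 1) of each Naa10-KO library minus the WT mean, for the 20 synthetase rows (left) and the 11 tested integrated stress response rows without a value of 0 (right). Grey bars span the 2 WT libraries. Synthetase points stay between -0.35 and 0.53. Sesn2, Eif2ak4, Atf4 and Eif2ak3 lie below WT in both libraries, as 34.9% of all tested rows do.

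The enzymes of class I and class II, the unrelated folds on which the catalytic domains of synthetases are built, both lay near no difference. Class I rows had a median log2 difference of 0.01 and class II rows 0.09. Eprs, which charges both glutamate and proline, was counted in class I only. Grouped by the multisynthetase complex, a large assembly of synthetases in animal cells, the 8 enzymes of the complex had a median of 0.01 and the 12 others 0.08. The medians of class I and of the complex, both near 0, were below 0 after quantile normalization (-0.0019 for each).

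The scaffold genes of that complex lay on different sides of WT, with little spread between libraries. Aimp2 had 68.9 and 69.1 RPKM in WT replicates 1 and 2, where the Naa10-KO replicates had 91.0 and 91.3 RPKM, both higher without overlap (log2 difference 0.40, SE 0.06, limma adjusted p = 0.109). Aimp1 had 55.5 and 58.5 RPKM in the WT libraries, against 47.3 and 47.5 RPKM in the Naa10-KO libraries, both lower (log2 difference -0.26, adjusted p = 0.168). Eef1e1, the third scaffold, had 68.2 and 69.4 RPKM in the WT pair, compared with 71.7 and 76.2 RPKM in the Naa10-KO pair. None of the 3 passed the test.

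Synthetases of the mitochondria are encoded by a separate set of nuclear genes. Of 17 such symbols 16 had a row and 15 were tested, with none past the threshold. Of the 15, 9 lay below WT in both Naa10-KO libraries and 4 above (background 34.9% and 24.4%), and the median log2 difference was -0.20. After centring, 7 lay below and 4 above (background 27.4% and 30.9%). Quantile normalization gave the same counts (background 29.6% and 29%), and the median was -0.14 under either scaling. Lars2, the mitochondrial leucine enzyme, differed most, with WT levels of 106 and 108 RPKM, next to 42.5 and 29.8 RPKM in the knockout libraries, or 33.8% of WT (log2 difference -1.56, SE 0.19, limma adjusted p = 0.0863). Its cytosolic counterpart Lars had 48.1 and 51.1 RPKM in WT replicates 1 and 2, where the Naa10-KO replicates had 50.9 and 50.05 RPKM. Hars2 had 5.45 and 5.69 RPKM in the WT libraries, against 3.40 and 2.81 RPKM in the Naa10-KO libraries (adjusted p = 0.125), and both Hars2 and Hars, whose genes overlap in RefSeq, were lower. Whether reads were assigned by strand is not known, so reads in the shared span cannot be told apart. Other members overlap further genes in RefSeq, among them Aars (Ddx19b), Wars (Wdr25), Farsb (Sgpp2), Ppp1r15a (Tulp2) and Atf5 (Nup62 and Il4i1b). Ddit3, which had no row, overlaps Mars. The same limit holds for these genes.

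Members of the integrated stress response lay farther from WT than the synthetases. Their absolute log2 difference had a median of 0.28, beside 0.10 for the synthetases and 0.22 over all tested rows. Many of these rows have lower RPKM, which are less precise. Of the 14 symbols of the response, 12 rows were tested, 3 with a higher mean in Naa10-KO and 9 with a lower one. None passed (limma, smallest adjusted p = 0.150 for Sesn2). Vldlr, a lipoprotein receptor gene, stayed between 0.457 and 0.641 RPKM and was below the filter of 1 RPKM. Of the 12, 1 lay above WT in both Naa10-KO libraries and 4 below, against 24.4% and 34.9% of all tested rows. Another 4 had the Naa10-KO libraries on opposite sides of WT, which 25.3% of all tested rows did. Atf5 was among these 4 and among the 9 lower means, through its value of 0 in Naa10-KO replicate 2. Without Atf5, 3 of 11 rows had a higher mean and 8 a lower one, with 3 on opposite sides. The median log2 difference was -0.15, also without Atf5, and -0.090 over the 10 of these rows with a mean of at least 5 RPKM, without Atf5. The synthetase median was higher by 0.18, a difference given as a description without a test. At an unadjusted limma p under 0.05, 4 of the 32 tested members would count (Sesn2, Atf4, the Qars row and Tars), a share below the 22.1% of all tested rows.

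Both kinases among the members were lower in both Naa10-KO libraries, as 34.9% of all tested rows were. Eif2ak3 encodes PERK, the kinase that senses ER stress. It had 9.11 and 9.22 RPKM in the WT pair, compared with 6.89 and 7.95 RPKM in the Naa10-KO pair (81.0% of WT, log2 difference -0.27, limma adjusted p = 0.268). Eif2ak4 encodes GCN2, the kinase that senses uncharged tRNA. It had WT levels of 10.4 and 10.96 RPKM, next to 7.58 and 9.78 RPKM in the knockout libraries (81.2% of WT, log2 difference -0.28, adjusted p = 0.351). Neither pair of groups overlapped, and in both genes replicate 1 lay farther from WT.

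Other regulators of eIF2 were taken from a list of 13 genes, of which 0 passed, 6 lay above WT in both Naa10-KO libraries and 4 below (24.4% and 34.9% of all tested rows). Eif2ak2 encodes PKR, the kinase that senses double-stranded RNA and is itself induced by interferon. It had 13.1 and 13.5 RPKM in WT replicates 1 and 2, where the Naa10-KO replicates had 7.06 and 5.56 RPKM, 47.6% of WT (log2 difference -0.97, SE 0.14, limma adjusted p = 0.0989). Gcn1l1, in a row joined with Mir7029, encodes the partner through which GCN2 is activated at the ribosome. It was higher, at 19.1 and 19.4 RPKM in the WT libraries, against 23.5 and 23.0 RPKM in the Naa10-KO libraries (adjusted p = 0.190). Named after its values were seen, Impact, an inhibitor of GCN2 activation and an imprinted gene, had 46.3 and 49.7 RPKM in the WT pair, compared with 82.4 and 55.5 RPKM in the Naa10-KO pair. Eif2ak1, named likewise, encodes the haem-regulated kinase HRI and had WT levels of 26.7 and 26.0 RPKM, next to 27.7 and 28.8 RPKM in the knockout libraries.

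Atf4 was among the most abundant members, second to the joined Qars row in every library. It had 421 and 406 RPKM in WT replicates 1 and 2, where the Naa10-KO replicates had 357 and 326 RPKM. Both Naa10-KO libraries lay below both WT libraries, at 82.6% of the WT mean (log2 difference -0.28, SE 0.08, 95% interval -0.49 to -0.06, limma adjusted p = 0.168). The interval covers each gene by itself, without correction for the number of rows tested.

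Other transcription factors of the response had much lower RNA levels. Atf5, an ATF4 relative and target that is also controlled at translation, was at 36.1 and 34.1 RPKM in the WT libraries, at 43.1 RPKM in Naa10-KO replicate 1, and listed at 0 in replicate 2. A value of exactly 0 can be a failed estimate in these tables, where 323 rows have at least 1 such value, so no fold is given for Atf5. Cebpb, which pairs with ATF4, had 5.82 and 5.04 RPKM in the WT libraries, against 9.06 and 6.24 RPKM in the Naa10-KO libraries, both higher but by unequal amounts (log2 differences 0.65 and 0.17). Cebpg, another partner of ATF4, had 3.53 and 4.04 RPKM in the WT pair, compared with 3.76 and 2.89 RPKM in the Naa10-KO pair, overlapping in replicate 1. Nupr1, a small stress-induced nuclear protein, had 22.6 and 20.1 RPKM in WT, 17.9 RPKM in Naa10-KO replicate 1 and 41.3 RPKM in replicate 2, on opposite sides of WT.

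Feedback genes showed no shared direction. Ppp1r15a encodes GADD34, which brings a phosphatase to eIF2 and so restores translation. It had 35.5 and 34.1 RPKM in WT, 47.3 RPKM in Naa10-KO replicate 1 and 29.8 RPKM in replicate 2. Trib3, a pseudokinase that restrains ATF4, had WT levels of 8.24 and 7.12 RPKM, next to 7.95 and 7.07 RPKM in the knockout libraries. Its Naa10-KO mean was 97.8% of WT.

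Effector genes of the response were led by Asns and Sesn2. Sesn2, which restrains mTORC1 signalling when leucine is short, had 113 and 103 RPKM in WT replicates 1 and 2, where the Naa10-KO replicates had 72.5 and 84.9 RPKM. Both Naa10-KO libraries were lower, without overlap, at 72.7% of WT (log2 difference -0.46, SE 0.11, limma adjusted p = 0.150). Asns, which makes asparagine, had 159 and 151 RPKM in WT, 105 RPKM in Naa10-KO replicate 1 and 184 RPKM in replicate 2, on opposite sides of WT. Chac1, which degrades glutathione and is a common marker of ATF4 activity, had 6.96 and 5.70 RPKM in the WT libraries, against 6.27 and 6.03 RPKM in the Naa10-KO libraries, both within the WT range.

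**Figure D3:**
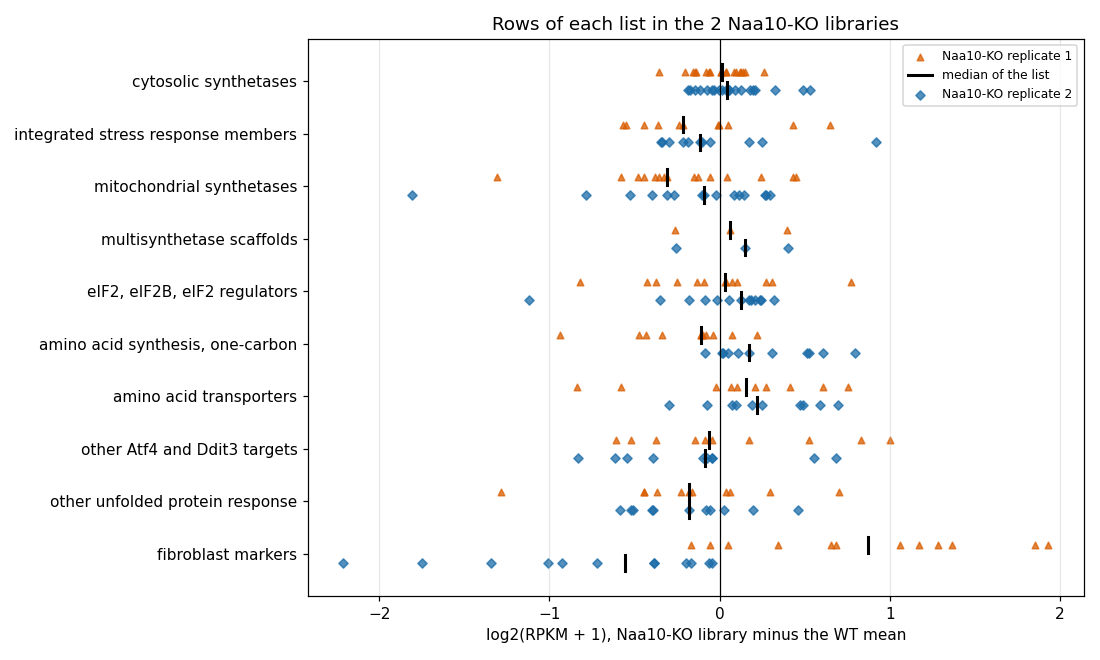
Each point is 1 tested row without a value of 0, as log2(RPKM + 1) of a Naa10-KO library minus the WT mean, with the median of each list as a black bar. Cytosolic synthetases cluster near 0 in both libraries, amino acid transporters lie mostly above 0, and fibroblast markers lie mostly above WT in replicate 1 (median 0.87) and below it in replicate 2 (median -0.55).

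Among 10 amino acid transporters known as ATF4 targets, 0 passed, 7 lay above WT in both Naa10-KO libraries and 2 below (24.4% and 34.9% of all tested rows), with a median log2 difference of 0.23. Slc7a11, which imports cystine, had 7.21 and 7.39 RPKM in the WT pair, compared with 13.0 and 10.5 RPKM in the Naa10-KO pair (161% of WT, log2 difference 0.61, SE 0.14, limma adjusted p = 0.141). Slc7a3, a carrier of arginine and lysine, had WT levels of 39.6 and 43.1 RPKM, next to 63.4 and 58.5 RPKM in the knockout libraries (147% of WT, adjusted p = 0.111). Slc7a5, the transporting subunit of a carrier of leucine and other large neutral amino acids, was chosen with its values in view and had 106 and 104 RPKM in WT replicates 1 and 2, where the Naa10-KO replicates had 127 and 171 RPKM. The lower ones were the glutamine carriers Slc38a2 and Slc1a5, also named afterwards. Slc38a2 had 212 and 218 RPKM in the WT libraries, against 143 and 175 RPKM in the Naa10-KO libraries, and Slc1a5 had 42.6 and 40.6 RPKM in the WT pair, compared with 22.9 and 39.4 RPKM in the Naa10-KO pair.

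Amino acid synthesis genes known as ATF4 targets differed between the Naa10-KO libraries rather than between the groups. Of 11 tested rows 0 passed, 7 had the Naa10-KO libraries on opposite sides of WT (25.3% of all tested rows did), and 10 were higher in replicate 2 than in replicate 1 (54.5% of all tested rows were). Their median was -0.11 in replicate 1 and 0.17 in replicate 2. Shmt2, a mitochondrial enzyme of serine and folate metabolism, had WT levels of 101 and 101 RPKM, next to 118 and 176 RPKM in the knockout libraries, both higher (limma adjusted p = 0.266). Cbs, which uses serine and homocysteine, had 23.9 and 22.4 RPKM in WT replicates 1 and 2, where the Naa10-KO replicates had 16.9 and 21.8 RPKM (adjusted p = 0.376). Among genes chosen with their values in view, Psat1, of serine synthesis, had 111 and 112 RPKM in WT, 108 RPKM in replicate 1 and 160 RPKM in replicate 2, and Pycr1, of proline synthesis, had 12.6 and 13.2 RPKM in WT, 9.04 RPKM in replicate 1 and 20.2 RPKM in replicate 2. Asns, above, had the same order. So had all 10 naive ESC markers, while all 12 fibroblast markers had the reverse one, and the part of either in these values was not tested.

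The list of other ATF4 and CHOP targets held 10 tested rows, of which 0 passed, 2 lay above WT in both libraries and 5 below, near the 24.4% and 34.9% of all tested rows. After centring, 2 lay below. Stc2, a secreted glycoprotein, had 3.03 and 3.12 RPKM in the WT libraries, against 4.87 and 5.54 RPKM in the Naa10-KO libraries (limma adjusted p = 0.129). Gdf15, a secreted stress hormone, had 3.99 and 3.39 RPKM in the WT pair, compared with 2.07 and 2.06 RPKM in the Naa10-KO pair (adjusted p = 0.134). Fgf21 had no row.

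The other arms of the unfolded protein response gave 11 tested rows, of which 0 passed, 2 lay above WT in both Naa10-KO libraries and 6 below (24.4% and 34.9% of all tested rows), with a median log2 difference of -0.31. Hsp90b1, the ER form of Hsp90, had WT levels of 356 and 355 RPKM, next to 261 and 250 RPKM in the knockout libraries, or 71.8% of WT (log2 difference -0.48, SE 0.06, limma adjusted p = 0.0922). Creld2, an ER protein induced by stress, had 47.7 and 44.0 RPKM in WT replicates 1 and 2, where the Naa10-KO replicates had 35.3 and 34.5 RPKM (adjusted p = 0.136). Xbp1, a transcription factor of the response, was named after its values were seen and went the other way, with 13.4 and 14.96 RPKM in the WT libraries, against 23.7 and 19.9 RPKM in the Naa10-KO libraries.

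Returning to the promoters, the synthetases with a C/EBP-ATF match of either form were Aars, Gars, Iars, Tars and Yars. Of these 5 genes, 4 lay above WT in both Naa10-KO libraries and 0 below (24.4% and 34.9% of all tested rows). Among the 2024 rows at or above the lowest synthetase mean, 671 lay above and 639 below. The log2 differences of the 5 genes ran from -0.04 for Yars to 0.31 for the joined Aars row. Of the 8 synthetases whose promoters held no match, 2 lay above WT and 2 below, with log2 differences from -0.27 to 0.13. The tested stress response members with a match, Asns, Chac1, Nupr1 and Trib3, had no member on one side of WT in both libraries. Of the 8 without a match, 1 lay above and 4 below, with a median log2 difference of -0.28. Splitting the expression values by motif was not planned. These counts describe few genes, were not tested, and cover only the window around 1 annotated start for each of these genes. They were made on the RPKM as deposited, and the counts over all synthetases changed with the scaling, as given above.

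The spread between replicates differed between the 2 sets of members. The absolute log2 difference between the Naa10-KO libraries had a median of 0.08 over the synthetases and 0.29 over the 11 stress response rows without Atf5. It was 0.25 over all tested rows and 0.19 over rows at or above the lowest synthetase mean. Between the WT libraries the medians were 0.03 for the synthetases, 0.14 for the stress response rows and 0.05 for all tested rows. The stress response rows reach far lower levels, where RPKM are less precise, so the 2 sets were not compared by a test. Taking each Naa10-KO library alone, 3 of the 32 members lay outside WT by at least 0.5 in replicate 1 (Cebpb above, Asns and Sesn2 below), where 26.9% of all tested rows did, 10.6% above and 16.3% below. In replicate 2 there were 3 as well (Vars and Nupr1 above, Atf5 listed at 0), where 14.1% of all tested rows did, 6.2% above and 7.93% below. Of the 2024 rows at or above the lowest synthetase mean, 341 lay outside WT by at least 0.5 in replicate 1 and 309 in replicate 2. No member was outside WT by this amount in both Naa10-KO libraries.

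**Figure D4:**
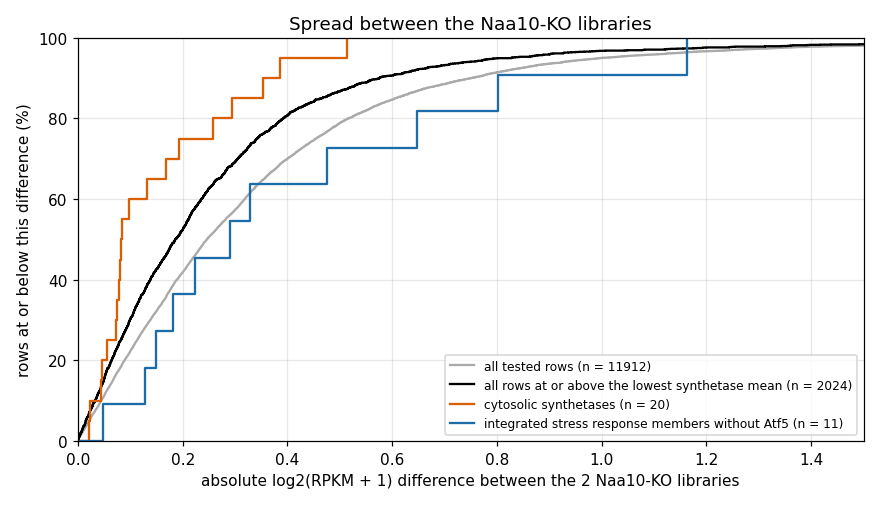
Share of rows (%) at or below a given absolute log2(RPKM + 1) difference between the 2 Naa10-KO libraries; the horizontal axis ends at 1.5. The synthetase curve (median 0.08) lies to the left of all rows at or above the lowest synthetase mean (median 0.19), and the stress response curve (median 0.29) lies near that of all tested rows (median 0.25).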

How the data were processed

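Polyadenylated RNA of 4 ESC libraries was sequenced on an Illumina HiSeq instrument, per the labels' protocols. The authors deposited 1 table of RPKM per library, per the file headers; build mm9 and the tools Cufflinks and bedtools are named in the submitters' processing notes, with the aligner, annotation and use of strand not given in the sources used here. Rows were kept as deposited. Differences were tested with limma 3.58.1 (R 4.3.3), two-sided and with its trended prior variance, on log2(RPKM + 1), for the 11912 of 14099 rows that reached 1 RPKM in 2 libraries or more, with Benjamini-Hochberg adjustment over all of them. The fit has 2 residual degrees of freedom and borrows 1.94 across rows. Fold changes on this scale understate changes of low genes. The weakest row of the tables peaks at 0.270 RPKM.

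Relative depth came from the steps in which RPKM of rows up to 75 nt move (tolerance 1%); Naa10-KO replicate 2 could be read in only 2 length classes. Fragment counts of the members were not recovered, so precision is judged from the replicates. Members and lists were chosen with earlier results of these data known. Full statistics were planned for members past the threshold, for those apart from WT by 0.5 or more (none of either) and for Atf4; the statistics of other members were added after their values were seen. From each further list the 2 rows with the smallest p are named. Alternatives changed the pseudocount, filter, scaling, replicate block, variance trend and libraries used. Scripts were tested on simulated data with the same spread in both groups. In the real data the Naa10-KO pair spread more than the WT pair, a case that the simulation did not cover. Python 3.11.15 and pandas 2.3.3 served for all other steps.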

Additional observations from a re-analysis of the deposited data

How the results depend on the processing

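No alternative that kept all 4 libraries called any of the 32 members. Members near 0 changed sign with the scaling: centring gave 0.062 for Eprs, 0.036 for Rars, 0.025 for Yars, 0.0044 for Farsb, 0.034 for Chac1 and 0.037 for Trib3, and quantile normalization gave -0.0011 for Lars, 0.034 for Chac1 and 0.038 for Trib3. The count of 91 called rows became 40 with no filter on low values, 0 with rows at 0 and small RNA rows left out (limma; 2624 at an unadjusted p under 0.05) and 44 with the replicate block. Centring the libraries moved the synthetase median to 0.10 and the stress response median to -0.085, and quantile normalization moved the latter to -0.094 and the difference between the medians to 0.11. The synthetase median stayed above the stress response median in each setting run.

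When a library was dropped, the fit took the spread of the intact pair for both groups, which presumes that the single library varies as that pair does: 12 to 7081 rows and 0 to 14 members were called, and 20 to 29 members lay apart from WT, since fewer libraries had to separate. The stress response median then ran from -0.17 to -0.11 and the difference between medians from 0.12 to 0.22. Single genes that then changed sign had log2 differences from -0.045 to 0.039 for Eprs, -0.018 to 0.067 for Lars, -0.18 to 0.12 for Rars, -0.034 to 0.099 for Wars, -0.16 to 0.036 for Farsb, -0.061 to 0.20 for Kars, -0.059 to 0.33 for Sars, -0.55 to 0.25 for Asns, -0.16 to 0.094 for Chac1, -0.24 to 0.92 for Nupr1, -0.22 to 0.43 for Ppp1r15a, -0.12 to 0.066 for Trib3, -0.040 to 0.51 for Psat1 and -0.47 to 0.61 for Pycr1. Same-numbered libraries tended only weakly to deviate in opposite directions (correlation -0.215 over tested rows), so the numbers are not taken to pair the samples. The replicate block called 0 members. With the Naa10-KO numbers crossed, a choice made after seeing the data, 133 rows and 0 members were called. Leaving out Atf5 and the joined rows, also chosen after seeing the data, left 15 members apart. Rows of a few RPKM, such as Cebpg and Vldlr, are measured least precisely, and absolute depth is not known.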
